A study of Mus musculus with 82 samples.

Results

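H60b is a mouse gene on chromosome 10 that encodes a ligand of NKG2D, an activating receptor of the immune system. It was found through the platform annotation as 1 probe set of 24922, that is 1 gene of the 19752 that have a probe set with a single symbol. The arrays (Affymetrix ST1.0) measured RNA from naive CD4 T cells sorted from the spleens of male inbred mice, and the pools behind each array held 2 to 3 mice according to the series description. Cells with CD3, CD4 and CD62L on their surface were kept, and cells with markers of other lineages or of activation, among them CD8, CD11c, CD25, CD49b, Gr1 and Ter119, were removed. There were 82 arrays in 40 strain groups, named by their titles: 38 groups had 2 arrays, C57BL/6J had 5 and SWR/J had 1. The sample labels give an age of 6 weeks and the series description 5 weeks.

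The strains were, in the order of their H60b level, PL/J, C57BR (by title), SJL/J, LP/J, FVB/NJ, BALB/cByJ, A/J, BPL/1J, C57L/J, LGJ, NOD/ShiLtJ, RIIIS/J, MA/MyJ, AKR/J, 129S1/SvImJ, PWD/PHJ, WSB/EiJ, NOR/LtJ, NZW/LacJ, BTBR T+ tf/J, P/J, JF1/Ms, NZB/BINJ, SEA/GnJ, SM/J, C3H/HeJ, CBA/J, C57BLKS/J, C57BL/6J, MSM/Ms, C57BL/10J, MRL/MpJ, CE/J, DBA2 (by title), KK.Cg-Ay/J, CAST/EiJ, NON/ShiLtJ, SWR/J, DDY/JclSidSeyFrkJ and CBA/CaJ. KK.Cg-Ay/J mice carry the Ay allele of agouti. All animals were untreated as far as the labels say. Title and genetic background disagree in 2 groups: CBA/CaJ is the background given for the C57BR titles and DBA/1LacJ for the DBA2 titles. These groups are called C57BR-titled and DBA2-titled here.

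The H60 proteins, with the Raet1 (Rae-1) and Ulbp1 (MULT1) proteins, are relatives of MHC class I molecules that bind NKG2D without presenting peptides. NKG2D, encoded by Klrk1, is carried by NK cells and activated CD8 T cells and signals through the adaptors DAP10 and DAP12. Its ligands are typically scarce on resting healthy cells and are induced by infection, transformation and DNA damage. H60a was first known as a minor histocompatibility antigen that differs between mouse strains, and H60b and H60c were found later by similarity to it. H60a and H60b have a transmembrane segment, whereas H60c is anchored to the membrane by a lipid.

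The sorted cells had high signal for T cell genes on all arrays: over strains, the median intensity was 6870 for Cd3e, 5103 for Cd4 and 6746 for Ccr7. The series description also mentions bone marrow granulocytes, and the 6 neutrophil genes on the marker list had median intensities between 25.7 for S100a8 and 86.3 for S100a9. Array medians lay between 102 and 142, the highest being C57BL/6J replicate 5. PL/J replicate 2 stood apart in its markers of other cells. Its mean log2 level of 7 B cell genes was 8.71, against 5.78 on PL/J replicate 1 and a median of 5.68 over all arrays. Its neutrophil list was at 7.72, against 5.61 on PL/J replicate 1, and its erythroid list was at 7.44, against 6.26. A/J replicate 2 was also high, at 7.33 for the B cell list and 7.28 for the erythroid list, against 5.76 and 6.25 on A/J replicate 1. In such bulk samples, fewer cells that express a gene and less of its RNA per cell cannot be told apart. The arrays of a strain are described as biological replicates from pooled mice, so p-values between strain groups rest on the spread between these pools. Those by subspecies origin were computed on strain means and rest on the spread between strains.

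H60b fell into 2 classes of strains with nothing between them. In 34 strains (71 arrays) its intensity lay between 95.6 and 1071, with a median of 301. In the other 6 strains (11 arrays) it lay between 14.9 and 21.0, with a median of 17.6. The classes were cut where neighbouring strain means, in log2, were further apart than 3 times the pooled replicate SD of H60b, that is 0.93. The single gap past this limit lay between the DBA2-titled arrays and KK.Cg-Ay/J and measured 2.63 log2, or 1.57 with an offset of 32 added to every intensity. No fold is given across the gap, since the low side may be a floor of the array. A limit of 2 replicate SDs gave the same classes. H60b was selected on these same values, its level in each strain and its differences between substrains, so the levels and classes are given as a description with no test.

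**Figure D1:**
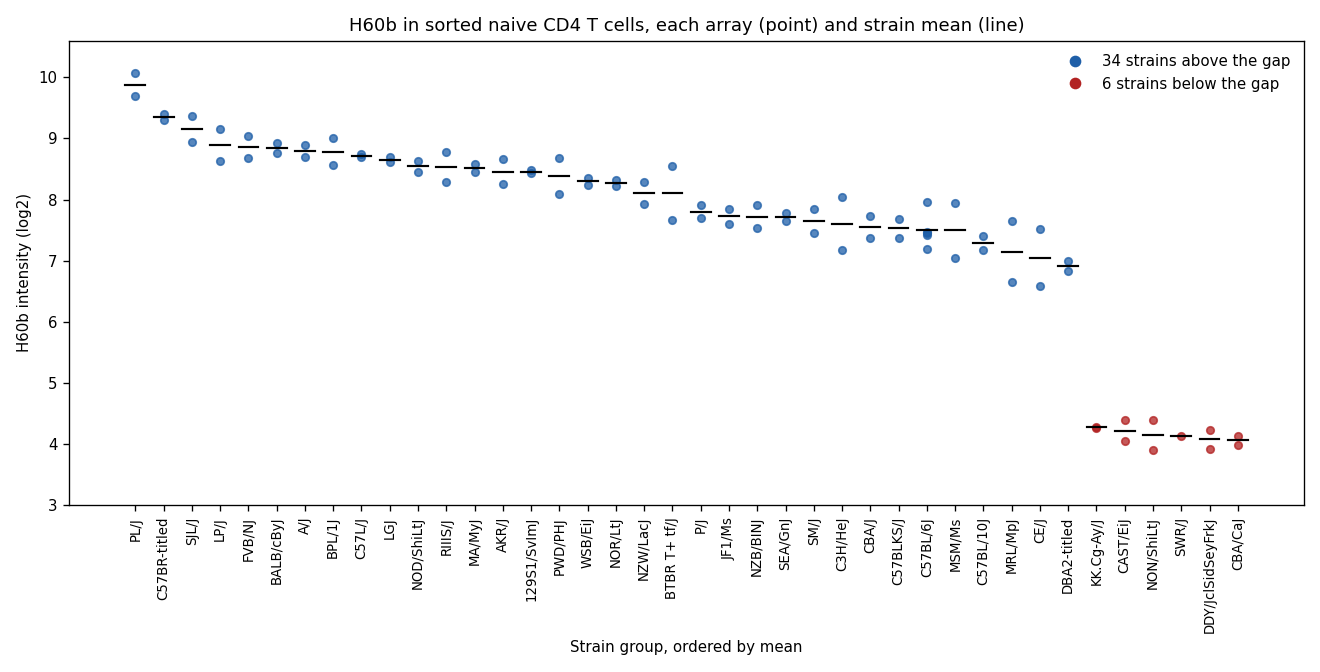
H60b intensity (log2, vertical axis) on each of the 82 arrays (points) with the strain mean (line), for 40 strain groups in the order of their means along the horizontal axis. The 34 strains above the gap run down without a break past 0.53 log2, and the 6 strains below it lie within 0.21 log2 of each other.

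The low class held KK.Cg-Ay/J, CAST/EiJ, NON/ShiLtJ, SWR/J, DDY/JclSidSeyFrkJ and CBA/CaJ. The intensities were 19.2 and 19.4 in KK.Cg-Ay/J, 16.5 and 21.0 in CAST/EiJ, and 21.0 and 14.9 in NON/ShiLtJ. They were 15.1 and 18.9 in DDY/JclSidSeyFrkJ, 15.8 and 17.6 in CBA/CaJ, and 17.4 on the only SWR/J array. The mean levels of these 6 strains ran from 4.06 to 4.27 in log2, a range of 0.21 that is smaller than the replicate SD within them, 0.22, so no order can be read among them. On its own array H60b ranked between percentiles 3.40 and 7.26 of all probe sets in these strains, and between 42.2 and 91.4 in the other strains. Such a rank describes signal only, since probe sets differ in their response. Detection calls and probe sequences were not used here. A low value therefore cannot be told from an absent transcript, and the part played by mismatches between the probes and the alleles of a strain was not tested.

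PL/J had the highest level by both of its arrays, at 1071 and 828, with a mean of 9.88 ± 0.26 log2 (SD, n = 2). Of the 2, the array rich in B cell, neutrophil and erythroid markers was the lower one, so H60b in PL/J was highest on the array without that marker excess. The next were the C57BR-titled arrays at 633 and 676 (9.35 ± 0.07) and SJL/J at 491 and 660 (9.15 ± 0.30). The step from C57BR-titled up to PL/J, 0.53 log2, was the largest within the upper class. Below it the levels formed a ladder with small steps.

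LP/J stood at 568 and 396 (8.89 ± 0.37), FVB/NJ at 526 and 412 (8.86 ± 0.25) and BALB/cByJ at 435 and 488 (8.85 ± 0.12). A/J had 475 and 416 (8.80 ± 0.14), BPL/1J 378 and 514 (8.78 ± 0.31), C57L/J 429 and 413 (8.72 ± 0.04) and LGJ 414 and 392 (8.65 ± 0.05). The means of these 7 strains lay closer together than the 2 arrays of LP/J did. The A/J array with more B cell and erythroid signal was again the lower of its pair.

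NOD/ShiLtJ followed at 351 and 398 (8.55 ± 0.13), RIIIS/J at 313 and 438 (8.53 ± 0.34) and MA/MyJ at 385 and 350.3 (8.52 ± 0.10). AKR/J had 305 and 406 (8.46 ± 0.29), 129S1/SvImJ 359 and 345 (8.46 ± 0.04) and the wild-derived PWD/PHJ 410.2 and 272 (8.38 ± 0.42). WSB/EiJ, a wild-derived M. m. domesticus strain, was at 301 and 328 (8.30 ± 0.09), and NOR/LtJ at 318 and 298 (8.27 ± 0.07). NZW/LacJ had 244 and 313 (8.11 ± 0.26) and BTBR T+ tf/J 372 and 202 (8.10 ± 0.62). The median over strains was 248, which no strain of this set fell below on average.

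The lower part of the upper class began with P/J at 207 and 241 (7.80 ± 0.16) and JF1/Ms at 194 and 231 (7.73 ± 0.18). NZB/BINJ had 241 and 185 (7.72 ± 0.27), SEA/GnJ 221 and 200.3 (7.72 ± 0.10), SM/J 229 and 175 (7.65 ± 0.27) and C3H/HeJ 264 and 144 (7.60 ± 0.62). CBA/J was at 212 and 166 (7.55 ± 0.25), C57BLKS/J at 166 and 206 (7.53 ± 0.22) and MSM/Ms at 246 and 132 (7.49 ± 0.63). C57BL/6J, the strain of the reference genome, had 177, 176, 171, 248 and 145 on its 5 arrays, with a mean of 7.50 ± 0.28 (SD, n = 5). At the bottom of this class were C57BL/10J at 169 and 144 (7.28 ± 0.16), MRL/MpJ at 200.3 and 100.4 (7.15 ± 0.71), CE/J at 184 and 95.6 (7.05 ± 0.67) and the DBA2-titled arrays at 127 and 114 (6.91 ± 0.11).

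Neighbours in this order were mostly not separated. Of the 39 steps between strains, 37 were at or under the pooled replicate SD of 0.31 log2, and the exceptions were the gap between the classes and the step up to PL/J. Across the whole upper class, however, the means spanned 2.97 log2, or 7.84-fold, and their SD of 0.70 was larger than the replicate SD within it, 0.32. The 2 arrays of a strain differed by a median of 0.33 log2 over 38 groups, and by more than 0.8 in 5 groups: MRL/MpJ, CE/J, MSM/Ms, C3H/HeJ and BTBR T+ tf/J. The widest, MRL/MpJ, differed by 1.00 log2. Replicate 1 was the higher array in 21 of the 36 groups that hold a replicate 1 and a replicate 2. Over all 40 strains the SD of H60b strain means was 1.60 log2, against a median of 0.14 over all probe sets.

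Strains of related descent were next set side by side, each difference being the mean log2 level of the strain named first minus that of the strain named second. Of 12 pairs, 5 differed in H60b by more than 1 log2 and 7 by less than 0.5. The arrays did not overlap in 8 pairs. With 2 arrays a strain that is common: the share of all 24922 probe sets whose arrays did not overlap was between 12.2% and 62.3% depending on the pair. The pairs were chosen with these levels known, so they are described without a test.

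The C57 strains gave both outcomes. C57BL/10J, at 169 and 144, and C57BLKS/J, at 166 and 206, overlapped with C57BL/6J, which had 145 to 248 on 5 arrays. Their differences were -0.21 ± 0.26 for C57BL/10J and 0.04 ± 0.26 for C57BLKS/J (SE from the pooled replicate SD), in pairs where 16.2% and 20.2% of all probe sets did not overlap. With 1 array left out they ran from -0.32 to -0.10 for C57BL/10J and from -0.12 (without C57BLKS/J replicate 2) to 0.19 (without C57BLKS/J replicate 1) for C57BLKS/J, so C57BLKS/J has no settled direction. C57L/J, at 429 and 413, lay above every C57BL/6J array, by 1.22 ± 0.26 log2 or 2.33-fold, and 13.4% of all probe sets did not overlap in this pair. The C57BR-titled arrays, at 633 and 676, lay further above them, by 1.86 ± 0.26 log2 or 3.62-fold, with 12.2% of probe sets not overlapping. All 4 comparisons share the 5 C57BL/6J arrays.

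The CBA substrains fell on opposite sides of the gap. CBA/J had 212 and 166, against 15.8 and 17.6 in CBA/CaJ, a difference of 3.49 ± 0.31 log2, or 2.17 with an offset of 32. In this pair 41.6% of all probe sets did not overlap. C3H/HeJ, a strain of related origin, had 264 and 144, 3.54 ± 0.31 log2 above CBA/CaJ, where 36.7% did not overlap. That difference was 2.23 with an offset of 32, and 3.11 to 3.98 with 1 array left out. The low values of CBA/CaJ may be a floor, so the sizes of both differences depend on it. The 4 arrays with the background label CBA/CaJ were split by their titles, at 633 and 676 for those titled C57BR and 15.8 and 17.6 for those titled CBA/CaJ. Which of title and background label is right cannot be settled from the labels.

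NON/ShiLtJ and NOD/ShiLtJ, lines of 1 colony, were likewise split. NON/ShiLtJ had 21.0 and 14.9, against 351 and 398 in NOD/ShiLtJ, a difference of -4.40 ± 0.31 log2, or -3.03 with an offset of 32. In that pair 47.0% of probe sets did not overlap. NOR/LtJ, which was bred from NOD, had 318 and 298, a difference of -0.28 ± 0.31 from NOD/ShiLtJ, with 44.4% not overlapping. With 1 array left out the first difference ran from -4.65 to -4.16 and the second from -0.37 to -0.19. Both are descriptions without a test.

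The remaining pairs differed by little, and by amounts that moved with single arrays. LP/J was 0.43 ± 0.31 log2 above 129S1/SvImJ, with 62.3% of all probe sets not overlapping, and NZW/LacJ was 0.39 ± 0.31 above NZB/BINJ, with 43.0% not overlapping. Without LP/J replicate 1 or 2 the first difference was 0.17 or 0.69, and without 1 array of its strains the second was between 0.20 and 0.58. The arrays of MSM/Ms and JF1/Ms overlapped, at 246 and 132 against 194 and 231, with a difference of -0.23 ± 0.31 and 38.1% of all probe sets not overlapping. It was -0.68 without MSM/Ms replicate 1 and 0.21 without MSM/Ms replicate 2, so its direction rests on single arrays. SJL/J and FVB/NJ overlapped too, with a difference of 0.29 ± 0.31 and 44.4% not overlapping (0.08 to 0.50 with 1 array left out), while SWR/J, the third strain of Swiss stock, was in the low class at 17.4. KK.Cg-Ay/J and DDY/JclSidSeyFrkJ, both of Japanese origin, were both in the low class. JF1/Ms and MSM/Ms, also of Japanese origin, were above the gap.

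**Figure D2:**
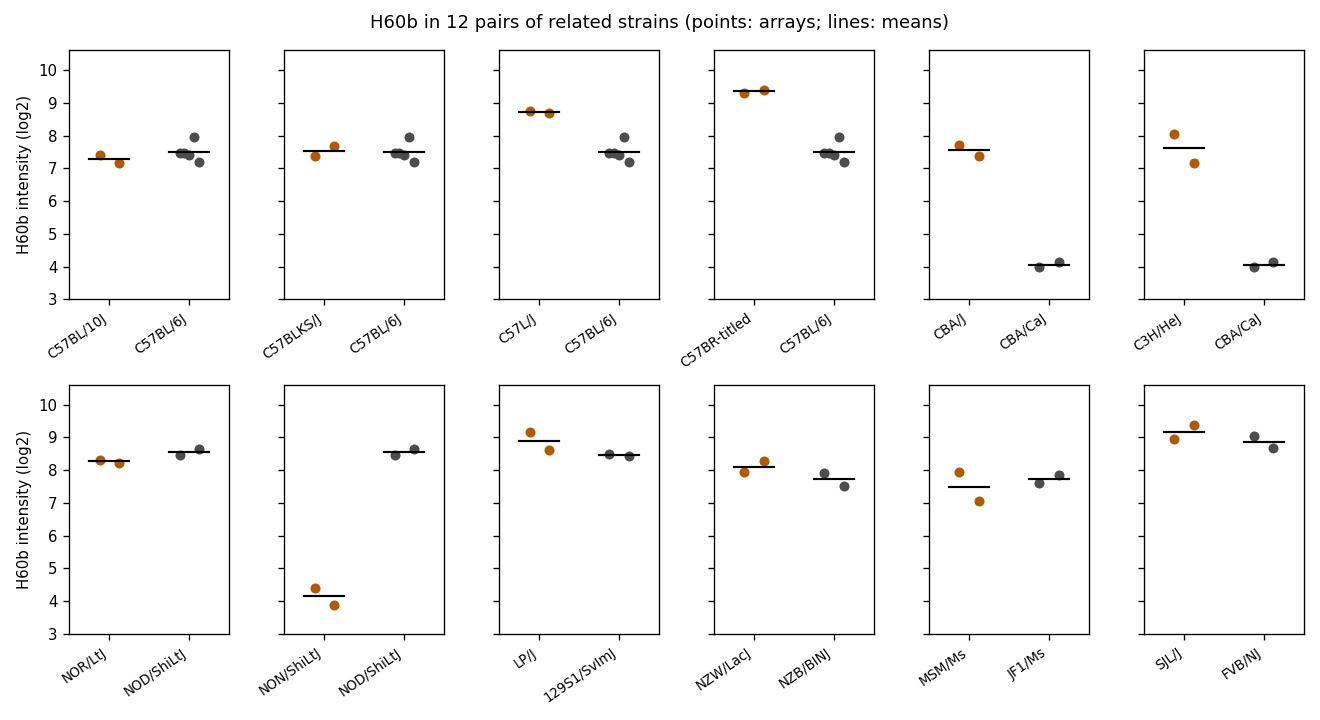
H60b intensity (log2, vertical axis) in 12 pairs of related strains, with each array as a point and the strain mean as a line. C57L/J and the C57BR-titled arrays lie above C57BL/6J by 1.22 and 1.86 log2, and CBA/J, C3H/HeJ and NON/ShiLtJ each lie on the other side of the gap from their relative.

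By subspecies, the low level was not shared by the strains derived from other stock than M. m. domesticus. CAST/EiJ was in the low class, whereas JF1/Ms, MSM/Ms and PWD/PHJ were above the gap. The 4 strains averaged 6.96 ± 1.86 log2 and the other 36 averaged 7.65 ± 1.58 (SD over strains), a difference of -0.69. Without CAST/EiJ the other 3 averaged 7.87, which turned the difference to 0.22.

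Other ligands of NKG2D could be followed only in part. Of 9 genes on the ligand list, H60b and Raet1d had a probe set with 1 symbol. Raet1d, a member of the Rae-1 group, had strain mean intensities between 14.4 in CBA/CaJ and 28.4 in PWD/PHJ, with a median of 17.6. It did not pass the limma F-test between 40 strain groups (Benjamini-Hochberg adjusted p = 0.485 over all probe sets), a test that 47.6% of all probe sets passed. The SD of its strain means was 0.16 log2, against 1.60 for H60b.

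The receptor and its adaptors gave 3 of 6 genes past the F-test, where 47.6% of all probe sets passed. Klrk1, which encodes NKG2D itself, was at low signal, from 21.1 in A/J to 56.7 in JF1/Ms (adjusted p = 2.7e-08). Hcst, which encodes the adaptor DAP10, ran from 239 in CAST/EiJ to 505 in BTBR T+ tf/J (adjusted p = 3.76e-08). Klrd1, which encodes CD94, the partner of the NKG2A and NKG2C chains, ran from 37.5 in 129S1/SvImJ to 1982 in JF1/Ms (adjusted p = 1.4e-30). Of the strains at these extremes, CAST/EiJ alone was H60b-low.

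Tyrobp, which encodes the adaptor DAP12, and Klrc1 and Klrc2, which encode NKG2A and NKG2C, did not pass, with adjusted p of 0.158, 0.864 and 0.421. Tyrobp stood out on a single array. It had 92.5 on PL/J replicate 1 and 267 on PL/J replicate 2, the array rich in markers of other cells. With single arrays left out Tyrobp had no call, except without PL/J replicate 1, which leaves replicate 2 alone for the strain.

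In the signalling list, 7 of 9 genes passed the F-test, where 47.6% of all probe sets passed. Brighter probe sets passed more often, 10826 of 14953 once the dimmest 40% were left out, a filter that also drops Syk and Plcg2 of this list. The spreads of the signalling genes were small. The strain means had a median SD of 0.15 log2, against 0.14 over all probe sets. Those that passed were Pik3r1 and Pik3cd (phosphoinositide 3-kinase subunits), Grb2 and Lcp2 (adaptor proteins), Vav1 (a guanine nucleotide exchange factor), Zap70 (a kinase of the T cell receptor) and Plcg1 (a phospholipase C). Plcg1 had the widest range of these, from 916 in JF1/Ms to 1729 in KK.Cg-Ay/J (adjusted p = 1.68e-07). Syk and Plcg2, a kinase and a phospholipase abundant in B cells, did not pass, with adjusted p of 0.157 and 0.389. PL/J replicate 2 had 247 for Syk and 232 for Plcg2, against 70.8 and 76.4 on PL/J replicate 1. A/J replicate 2 had 127 and 105, against 80.0 and 89.8 on A/J replicate 1. C57BL/6J replicate 5 had 91.8 and 114, above the other arrays of its strain. Without PL/J replicate 1 their adjusted p were 3.47e-05 and 0.000148.

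Over all probe sets 47.6% passed the F-test, and 10826 of 14953 did without the dimmest 40%. All 6 measured genes of the 8 on the DNA damage checkpoint list passed it. They were the kinases Atm, Atr, Chek1 and Chek2, the transcription factor E2f1 and Mdm2, which restrains p53. Chek1 and Chek2 are themselves among the dimmest 40%, so the share without those probe sets does not cover them. Chek2 ran from 36.9 in NOD/ShiLtJ to 91.4 in PWD/PHJ (adjusted p = 3.43e-09), and Atr was highest in BALB/cByJ at 528 and lowest in BTBR T+ tf/J at 217 (adjusted p = 0.000263). The ranges of these genes were between 0.70 log2 for Mdm2 and 1.31 log2 for Chek2, far under the 5.82 log2 between the ends of the H60b order. The 22 genes on the receptor, signalling, damage and ligand lists had Pearson r with H60b between -0.25 and 0.18 over 40 strains. Within the 34 strains above the gap, r ran from -0.44 for E2f1 to 0.40 for Lcp2. These correlations are a description over strains that share descent.

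**Figure D3:**
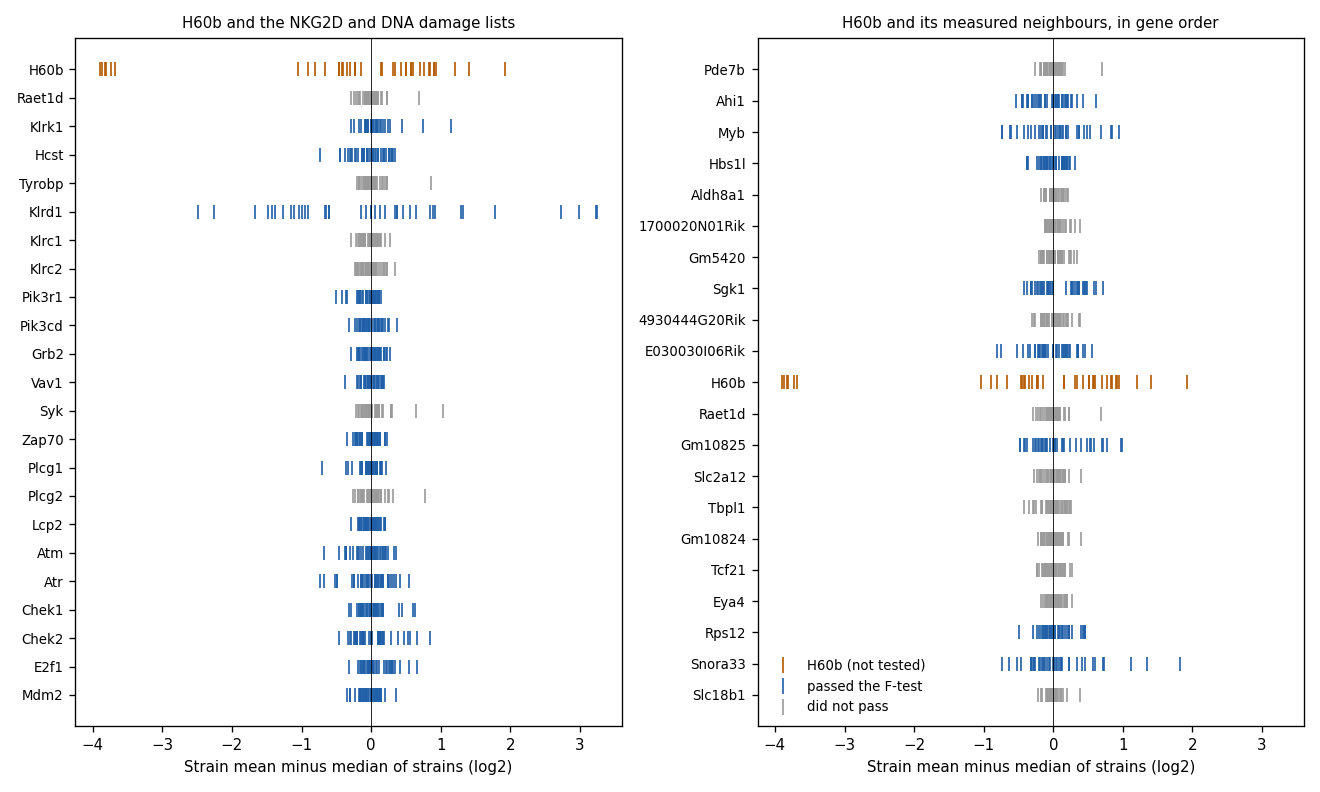
Strain means minus the median of the 40 strains (log2, horizontal axis) for H60b, 22 genes of the NKG2D and DNA damage lists (left) and 20 measured neighbours in gene order (right), with 1 mark per strain. H60b has a separate group of 6 strains near -4, whereas the other genes stay within about 1 log2 of their median, Klrk1, Klrd1, Syk and Snora33 excepted.

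Genes beside H60b on chromosome 10 were read in the order of the RefSeq annotation, 10 measured genes on each side. Of these 20, 8 passed the F-test, a share near the 47.6% of all probe sets. They were E030030I06Rik, Sgk1 (a serum and glucocorticoid regulated kinase), Hbs1l (a ribosome rescue factor), Myb (a transcription factor of blood progenitors), Ahi1 (a ciliary protein), Gm10825 (a long noncoding RNA), Rps12 (a protein of the small ribosomal subunit) and Snora33 (a small nucleolar RNA). Rps12 has 8 probe sets with its symbol and Hbs1l has 2, and only the brightest of each was read. Whether the Rps12 probe set read here lies beside H60b was not checked, so its calls may not concern this locus. Of Snora33 the arrays of PL/J read 361 and 5375, the higher on the marker-rich replicate 2, and without A/J replicate 2 its adjusted p was 0.0582, against 0.0268 with all arrays. E030030I06Rik is the nearest measured gene on one side, and on the other Raet1d is the nearest and Gm10825 the next.

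None of these neighbours was low in the same strains as H60b: at most 2 of the 6 H60b-low strains were among the 6 lowest of any of the 41 genes. E030030I06Rik, whose strain means ran from 117 to 302, had 204 to 274 in the 6 H60b-low strains, near or above its median of 205. Gm10825 ran from 91.4 to 253, and the 6 strains had 91.4 to 130 against a median of 128. Both genes have strain means within 1.5 log2, against the 5.82 of H60b.

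Related strains were compared for the same 41 genes, that is 22 on the lists and 20 neighbours with Raet1d in both, by limma contrasts in 1 fit over all arrays. Across the 12 pairs there were 20 calls in 10 genes, 7 of them higher and 13 lower in the strain named first. Only 3 of the 20 calls held under all alternatives run, and all 3 were in the C57 strains beside H60b. The C57 pairs have 5 reference arrays and the other pairs 2, so calls in the other pairs are lost more easily. E030030I06Rik had 117 and 116 in C57L/J and 114 and 128 in the C57BR-titled arrays, against 198, 240, 198, 216 and 280 in C57BL/6J. It was lower in C57L/J by -0.94 ± 0.13 log2 (SE, adjusted p = 8.53e-07) and in the C57BR-titled arrays by -0.89 ± 0.13 (adjusted p = 2.67e-06), with no overlap of arrays in either.

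Gm10825 was lower in C57L/J, at 121 and 99.3 against 217, 186, 258, 219 and 217 in C57BL/6J, a difference of -0.99 ± 0.14 log2 (adjusted p = 9.47e-07). In the C57BR-titled arrays it had 130 and 155, a difference of -0.62 ± 0.14 (adjusted p = 0.00397), and the adjusted p was 0.422 without C57BR-titled replicate 1 and 0.0736 with centring of array medians. So in the 2 strains of this family with more H60b than C57BL/6J, the genes E030030I06Rik and Gm10825 on either side were lower than in C57BL/6J. For Gm10825 the reference was high: C57BL/6J had a mean of 218 against a median over strains of 128, C57L/J 110 and C57BR-titled 142. For E030030I06Rik, C57BL/6J had 224 against a median of 205, C57L/J 117 and C57BR-titled 121. Raet1d had no call in any pair. In the C57L/J contrast 4 of the 41 genes were called, against 1.74% of all probe sets, and in the C57BR-titled contrast also 4, against 1.45%.

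The other calls of both contrasts were in Myb and Chek2. Myb had 312 and 308 in C57L/J and 318 and 302 in the C57BR-titled arrays, against 451, 421, 540.0, 430 and 612 in C57BL/6J. The differences were -0.65 ± 0.16 in both (adjusted p = 0.0139 in C57L/J and 0.0143 in C57BR-titled). Both groups, at means of 310, lay above the Myb median over strains, 272, and C57BL/6J, at 485, lay further above it. Without C57BL/6J replicate 5 the adjusted p were 0.0534 and 0.06, and without 1 array of the strain itself they were between 0.118 and 0.354. Chek2, at -0.59 ± 0.14 in C57L/J (adjusted p = 0.00673) and -0.62 ± 0.14 in C57BR-titled (adjusted p = 0.00359), had adjusted p of 0.609 without C57L/J replicate 2 and 0.582 without C57BR-titled replicate 1. With an offset of 32 its differences were -0.38 and -0.39.

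The pairs on opposite sides of the H60b gap had few calls among these genes. CBA/J against CBA/CaJ gave 0 of 41, where 0.361% of all probe sets were called. With 2 arrays on each side, the absence of a call does not show equal levels. Gm10825 had 180 and 156 in CBA/J, against 109 and 103 in CBA/CaJ. E030030I06Rik had 204 and 206 in CBA/J, against 274 and 275 in CBA/CaJ. The arrays did not overlap in either gene, as in 41.6% of all probe sets in this pair. C3H/HeJ against CBA/CaJ gave 2 of 41 (0.859% of all probe sets): Gm10825 at 0.76 ± 0.16 (adjusted p = 0.00576) and Rps12 at -0.54 ± 0.13 (adjusted p = 0.0206). Without C3H/HeJ replicate 1 or CBA/CaJ replicate 2 the adjusted p of Gm10825 were 0.17 and 0.126, and without C3H/HeJ replicate 1, CBA/CaJ replicate 1 or CBA/CaJ replicate 2 those of Rps12 were 0.435, 0.145 and 0.227. NON/ShiLtJ against NOD/ShiLtJ gave Klrd1 and Chek2 (1.88% of all probe sets), neither a neighbour of H60b. Klrd1 was 0.99 ± 0.23 higher (adjusted p = 0.0072) and Chek2 0.60 ± 0.16 higher (adjusted p = 0.0337) in NON/ShiLtJ. Without NOD/ShiLtJ replicate 1 or NON/ShiLtJ replicate 1 the adjusted p of Klrd1 were 0.251 and 0.24. Those of Chek2 were 0.53 without NOD/ShiLtJ replicate 1, 0.0689 without NOD/ShiLtJ replicate 2 and 0.748 without NON/ShiLtJ replicate 1, and its difference was 0.35 with an offset of 32.

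Of the pairs with like H60b levels, LP/J had more Klrd1 than 129S1/SvImJ, at 107 and 83.7 against 43.7 and 32.2, by 1.34 ± 0.23 log2 (adjusted p = 0.00019, 0.055 without 129S1/SvImJ replicate 2), or by 0.86 with an offset of 32. This was 1 call of 41, where 1.01% of all probe sets were called. SJL/J had less Klrd1 than FVB/NJ, at 112 and 104 against 235 and 223, by -1.08 ± 0.23 log2 (adjusted p = 0.00209, 0.0584 without SJL/J replicate 2), again 1 call of 41 against 2.44%. NOR/LtJ against NOD/ShiLtJ and NZW/LacJ against NZB/BINJ gave 0 of 41, where 0.506% and 1.95% of all probe sets were called.

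E2f1 was the single called gene of the 41 in C57BL/10J and in C57BLKS/J against C57BL/6J, where 2.49% and 1.67% of all probe sets were called. It was higher by 0.49 ± 0.11 log2 in C57BL/10J (adjusted p = 0.00629, 0.278 without C57BL/10J replicate 3). It was higher by 0.42 ± 0.11 in C57BLKS/J (adjusted p = 0.0175), with adjusted p of 0.647 without C57BLKS/J replicate 2 and 0.0522 and 0.0519 without C57BL/6J replicate 3 or 5. MSM/Ms against JF1/Ms gave 4 of 41 (2.13% of all probe sets), each resting on single arrays. Hcst was lower by -0.71 ± 0.15 (adjusted p = 0.00124, but 0.105 without JF1/Ms replicate 1 and 0.0685 without MSM/Ms replicate 1), and Plcg1 was higher by 0.44 ± 0.10 (adjusted p = 0.00448, but 0.107 without JF1/Ms replicate 2 and 0.136 without MSM/Ms replicate 1). Ahi1 at -0.56 ± 0.14 (adjusted p = 0.017) was lost without any 1 of the 4 arrays, at adjusted p between 0.0813 and 0.28. Rps12 at -0.47 ± 0.13 (adjusted p = 0.0388) had 0.352 and 0.197 without JF1/Ms replicate 1 or 2 and 1 without MSM/Ms replicate 1.

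Between the 4 strains of other subspecies and the 36 remaining strains, tested on strain means, 6 of the 41 genes passed, where 8.73% of all probe sets did. Klrd1 was higher by 3.34 ± 0.50 log2 (adjusted p = 3.82e-06), and its arrays were 1488 and 1292 in CAST/EiJ, 2086 and 1845 in PWD/PHJ, 1429.6 and 1926 in MSM/Ms and 1982 on both of JF1/Ms. Klrk1, at low signal, was higher by 0.63 ± 0.09 (adjusted p = 7.88e-07), or by 0.32 with an offset of 32. Plcg1 was lower by -0.36 ± 0.07 (adjusted p = 0.000242) and Hbs1l by -0.29 ± 0.08 (adjusted p = 0.0108). Pik3r1 and Myb passed narrowly, at adjusted p of 0.0444 and 0.0456, with differences of -0.22 ± 0.07 and -0.59 ± 0.19. Pik3r1 was lost when any 1 of 11 arrays was left out, with an adjusted p of up to 0.106 (without BTBR T+ tf/J replicate 1), and Myb when any 1 of 12 was, with an adjusted p of up to 0.0635 (without PWD/PHJ replicate 2). H60b itself was on both sides of its gap among these 4 strains.

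No gene had a strain pattern close to that of H60b. Probe sets with 1 symbol were compared if at least 1 strain mean passed the median of all values, which left 12489. Among them, Pearson r with the H60b strain means over 40 strains ran from -0.52 to 0.60, and 1 of them passed 0.6 in size. That was Trp53inp1, which encodes a protein induced by p53, with r = 0.60 and Spearman rho = 0.59. Its strain means ran from 963 in DDY/JclSidSeyFrkJ to 3359.9 in BALB/cByJ. Without CBA/CaJ and DDY/JclSidSeyFrkJ, the 2 strains farthest from the H60b median, r was 0.51, and within the 34 strains above the gap it was 0.52.

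Next came Tcea2 (a transcription elongation factor) at r = 0.49, Zfp608 (a zinc finger protein) at 0.48, Abcg3 (an ABC transporter) at 0.47 and Ascl3 (a transcription factor) at 0.47. Within the upper 34 strains their r were 0.11, 0.41, 0.38 and 0.10, so Tcea2 and Ascl3 followed the gap and little else. At the negative end, E030030I06Rik had r = -0.52 and rho = -0.61, and -0.50 within the upper class. It was the one of these 10 genes on chromosome 10, the nearest measured gene to H60b on one side, with 6 annotated genes between. Raet1d, on the other side with 2 genes between, is nearer and had r = 0.10, and -0.05 within the upper class. Of the other neighbours, Sgk1 had 0.52, Tcf21 -0.49 and Gm10825 -0.46 within the upper class. Kcnj16 (a potassium channel) at -0.52, 1700020D05Rik at -0.51, Pid1 (a phosphotyrosine interaction domain protein) at -0.49 and Fryl at -0.47 gave -0.01, 0.43, -0.19 and -0.13 within the upper class. The strains share descent and the genes share arrays, so these values are descriptions only.

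**Figure D4:**
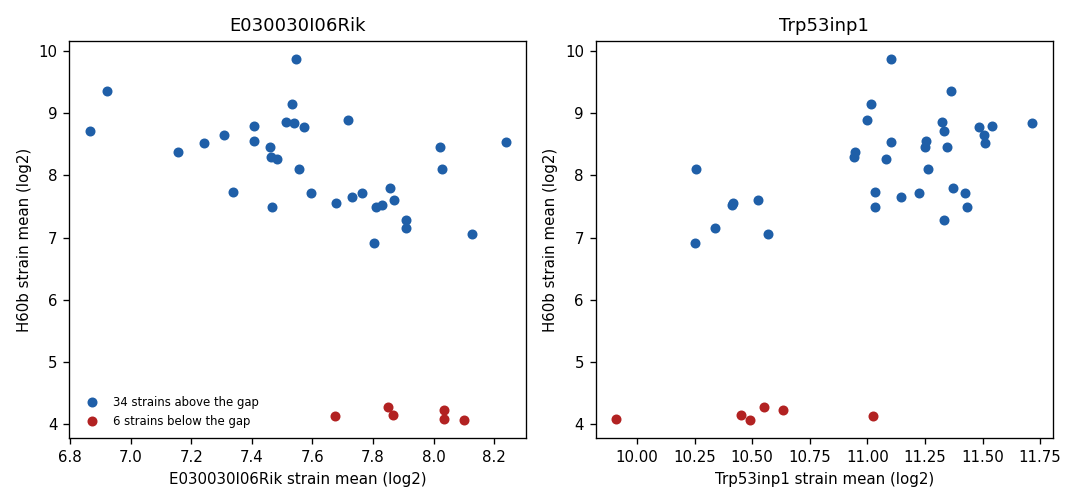
H60b strain mean (log2, vertical axis) against the strain mean of E030030I06Rik (left) and Trp53inp1 (right) (log2, horizontal axis), with 1 point per strain and the 6 strains below the gap in red. Over the 34 upper strains H60b falls with E030030I06Rik (r = -0.50) and goes up with Trp53inp1 (r = 0.52), with wide scatter in both.

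Markers of other cells did not separate the H60b-low strains. The strain means of the B cell list lay between 5.62 and 5.84 log2 in the 6 low strains and between 5.57 and 7.25 in the 34 others. The neutrophil list gave 5.37 to 5.67 and 5.30 to 6.66, and the naive CD4 T cell list 11.8 to 12.1 and 11.8 to 12.2. The NK cell list alone reached higher in the low strains, 6.22 in CAST/EiJ against 6.04 at most in the others. The median intensities of its 7 genes ran from 14.9 for Klrb1c and 20.8 for Ncr1 to 334 for Prf1, and Gzma reached 323 in its highest strain. The part of NK cells in the H60b levels was not tested.

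Genes of activated and regulatory T cells (Cd44, Foxp3, Il2ra, Ctla4 and Ikzf2) were the list that moved most with H60b between arrays of 1 strain. The correlation of deviations from strain means was r = 0.41 and rho = 0.33 over 82 arrays, and r = 0.36 without the 2 arrays farthest out. In a group of 2 arrays the deviations are equal and opposite, so the 82 values are not independent. By gene it was 0.44 for Il2ra, 0.40 for Ikzf2, 0.35 for Foxp3, 0.18 for Ctla4 and 0.08 for Cd44. Single naive CD4 T cell genes had values of like size in both directions, from -0.41 for Cd3d to 0.38 for Lef1. The array with more of the activated and regulatory list had more H60b in 20 of the 38 groups with 2 arrays. Over strain means r was 0.33 for all 40 strains and 0.13 for the upper 34. The part of these cells in the H60b levels was not tested.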

How the data were processed

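RNA of sorted naive CD4 T cells from 82 pools was measured on Affymetrix ST1.0 arrays. The values used are the deposited intensity of each of 24922 probe sets on a linear scale, made by the authors with RMA in Affymetrix Power Tools per the submitters' processing notes. Versions, the genome build and the probe sequences are not given in the sources used here. By its design RMA corrects background, normalizes quantiles and summarises the probes of a set, which draws very low values together. The array medians of the deposited values still differed, from 102 to 142, so the probe set values do not share 1 distribution over the 82 arrays. Intensities were turned to log2 with no offset. Of the probe sets, 21425 have 1 symbol in the platform annotation, 1399 several and 2098 none. A gene was read from its probe set with the highest mean and 1 symbol, and neighbours were ordered by RefSeq GRCm38.p6, which was used for gene order only.

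Groups were taken from the sample titles. H60b was described without a test. All other genes were fitted in limma 3.58.1 (R 4.3.3), with 1 coefficient for each of 40 groups (42 residual degrees of freedom), an F-test between groups, contrasts for 12 related pairs and, on 40 strain means, a contrast by subspecies origin. P-values were adjusted for all probe sets by Benjamini-Hochberg, and an adjusted p under 0.05 is a call. Genes named are the measured members of the lists, the neighbours past the F-test, and the 5 highest and 5 lowest correlations with H60b over strains. The gene, the lists, the pairs and these rules were chosen with earlier results of these data known. The fits were tested on simulated data. The number of arrays limits the precision. Alternatives were quantile normalization, centring of array medians, an offset of 32, no probe sets among the dimmest 40%, a trended prior, a single probe set for each symbol, a replicate block, PL/J replicate 2 and A/J replicate 2 left out together, and each array left out in turn.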

Additional observations from a re-analysis of the deposited data

Results flagged for a closer look

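With 5 arrays, C57BL/6J was the one strain in which a single array could be examined for standing apart. In 6 of 42 genes the array farthest out lay further from the rest than Dixon's 95% critical value of 0.710, where chance gives about 1 in 20. H60b was not among them, with a value of 0.63 for replicate 4 at 248. In 5 of the 6, replicate 5 was the high one. It read 29.9 for Klrc1, against 14.7 to 17.6 on the other arrays, and 43.2 for Klrc2, against 23.6 to 27.3, both genes of NK cell receptors. It read 114 for Plcg2, against 66.0 to 76.3, 106 for Tcf21, against 51.9 to 58.7, and 45.9 for Eya4, against 37.3 to 39.1. Replicate 3 read 1519 for Pik3cd, against 1316 to 1362. Replicate 5 also had the highest median of all arrays, 142, and the lowest H60b of its strain, 145.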

How the results depend on the processing

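The same 6 strains formed the low class of H60b and PL/J was highest with quantile normalization, with centring, with an offset of 32, without PL/J replicate 2 and A/J replicate 2 together, and with single arrays left out, except that 5 strains remained without the only SWR/J array. The other alternatives concern the tests and were not applied to H60b. The gap between the classes was 2.63 log2, 1.57 with an offset of 32, which shrinks low values by construction, and 2.30 to 2.71 with single arrays left out, the lowest without CE/J replicate 1. With single arrays left out, the genes past the F-test numbered 16 to 19 of the 22 on the lists (16 with all arrays) and 8 to 10 of the 20 neighbours (8 with all arrays), and 4 to 7 genes differed by origin (6 with all arrays). Calls between related strains numbered 20, and 17 to 23 with single arrays left out. Centring of array medians left 11, the cause of which was not tested. The H60b differences of C57BLKS/J from C57BL/6J and of MSM/Ms from JF1/Ms, neither larger than its error, changed sign when some single arrays were left out. No tested gene reversed its direction. For single genes, 82 comparisons lost their call and 32 gained one, of 7294. That total also holds the descriptive H60b values, which have no call to lose or gain.

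Arrays with the same number share only that number: the correlation of their deviations over 630 pairs of groups ranged from -0.63 to 0.57 and passed 0.1 in 199. With a replicate block, 17 listed genes and 10 neighbours passed the F-test and 15 calls between related strains were made. Syk, Slc2a12 and 4930444G20Rik gained a call, and Chek2 and Myb in C57L/J and C57BR-titled and E2f1 in C57BLKS/J lost theirs. Pools of 2 arrays per strain, and low intensities near the bottom of the array, limit what can be read of the order among strains and of any difference within the low class.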
